A study of Sus scrofa with 12 samples.

Results

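The antioxidant enzyme genes described here were the superoxide dismutases SOD1, SOD2 and SOD3, catalase (CAT), the glutathione peroxidases GPX1, GPX3 and GPX4, the mitochondrial peroxiredoxin PRDX3, the quinone reductase NQO1, and NFE2L2, which encodes the transcription factor NRF2. They were chosen by their symbols, and not by their values, because muscle rich in heme protein had been proposed to carry a defence against oxidative stress. Of the 10 symbols, 9 were measured among the 25880 genes of the count tables, and GPX1 was not analysed here. RNA of longissimus dorsi, the back muscle that gives the loin, was sequenced from 12 Iberian pigs with 1 library per pig. The High MB group held 6 pigs with a high estimated breeding value for myoglobin content and the Low MB group 6 pigs with a low one. The pigs of both groups were castrated males of a closed commercial Iberian population, fattened outdoors on acorns and grass and given no treatment. Muscle myoglobin, the heme protein that stores oxygen and colours meat, averaged 2.48 ± 0.0657 mg/g among High MB pigs and 1.39 ± 0.147 mg/g among Low MB pigs (SD, n = 6 each). The groups were formed by breeding value and differed in measured content as well, so inherited and other differences between these pigs cannot be told apart.

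Superoxide leaks from the respiratory chain and from oxidases, and superoxide dismutases turn it into hydrogen peroxide. Catalase, glutathione peroxidases and peroxiredoxins then remove the peroxide, in peroxisomes, cytosol, mitochondria or outside the cell according to the enzyme. NRF2 is held low by KEAP1 and, when released under oxidative or electrophilic stress, binds antioxidant response elements upstream of genes such as NQO1. In red, oxidative muscle, myoglobin itself can react with peroxide, and mitochondria are a main site of both superoxide production and its removal.

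The sequence that links NRF2 to its targets is short, and its core was looked for in the 1000 bases before the start of 1 RefSeq transcript per gene on Sscrofa11.1. The core was written TGACNNNGC and searched on both strands. It was found in this window for 6081 of 19542 genes (31.1%) and for 5 of the 9 measured antioxidant genes, which were SOD2 (3 matches), SOD3 (2), GPX4 (3), NQO1 (1) and NFE2L2 (1). The matches of SOD3 and NFE2L2 lay before the transcript used but within the span that RefSeq gives the gene, and that of NFE2L2 overlapped an exon of another transcript. The match nearest to the start is printed for NQO1, the classical NRF2 target, and for SOD2 and GPX4, in the direction of the gene and with the core in capitals. A match is only a run of letters, and no binding was measured in these muscles.
NQO1 at chr6:17292737-17292775, plus strand, core 202 bases before the start: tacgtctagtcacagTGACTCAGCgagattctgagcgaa
GPX4 at chr2:77324098-77324136, minus strand, core 182 bases before the start: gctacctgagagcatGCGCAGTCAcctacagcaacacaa
SOD2 at chr1:7679044-7679082, plus strand, core 285 bases before the start: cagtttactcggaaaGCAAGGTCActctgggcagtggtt
The NQO1 core reads in the direction of the gene, whereas those of GPX4 and SOD2 lie on the opposite strand.

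Gene counts summed to between 38914271 and 91318334 per pig. The libraries fell into 5 deep ones with more than 50000000 counts, from numbers 4 and 6 of the High MB group and 1, 5 and 6 of the Low MB group, and 7 standard ones. Group differences are therefore also given within each depth class. High MB pig 2 stood apart, since its summed muscle fibre markers were 44216 CPM against 72655 to 125470 CPM in the other 11 pigs. Many of the values that it moves by over 1.5 times or across a limit are given without it as well. Any 2 libraries of the same group differed far beyond sampling noise, so no library was a copy of another. Levels are given as CPM, the counts of a gene per fixed number of library counts after TMM scaling, and a group difference as log2 fold change of the High MB group over the Low MB group. The p-values measure the spread between pigs.

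None of the 9 antioxidant genes was called different between the groups. With edgeR's quasi-likelihood test, a Benjamini-Hochberg adjusted p below 0.10 and an absolute log2 fold change above 0.58, 0 of 9 were called, beside 0 of 13373 genes tested (0%). DESeq2 with the same limits also called 0 of the 9, beside 29 of the 14417 genes to which it gave an adjusted p (0.201%). At an unadjusted edgeR p below 0.05, 8.46% of all genes differed in either direction. By this measure 2 of the 9 genes, SOD3 and GPX4, were higher in the High MB group, against a background of 5.33% of all genes, and 0 of 9 were lower, against 3.13%. The log2 fold change was above 0 in 7 of 9 genes, with a median of 0.12, while it was above 0 in 46.9% of all genes, with a median of −0.016. In none of the 9 did the values of the 2 groups separate completely, which happened in 0.426% of all genes. All 9 had passed the filter on low counts. Without High MB pig 2, the 2 of 9 genes at p below 0.05 were GPX4 and PRDX3 and no longer SOD3, beside 5.80% of all genes higher and 4.53% lower.

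**Figure D1:**
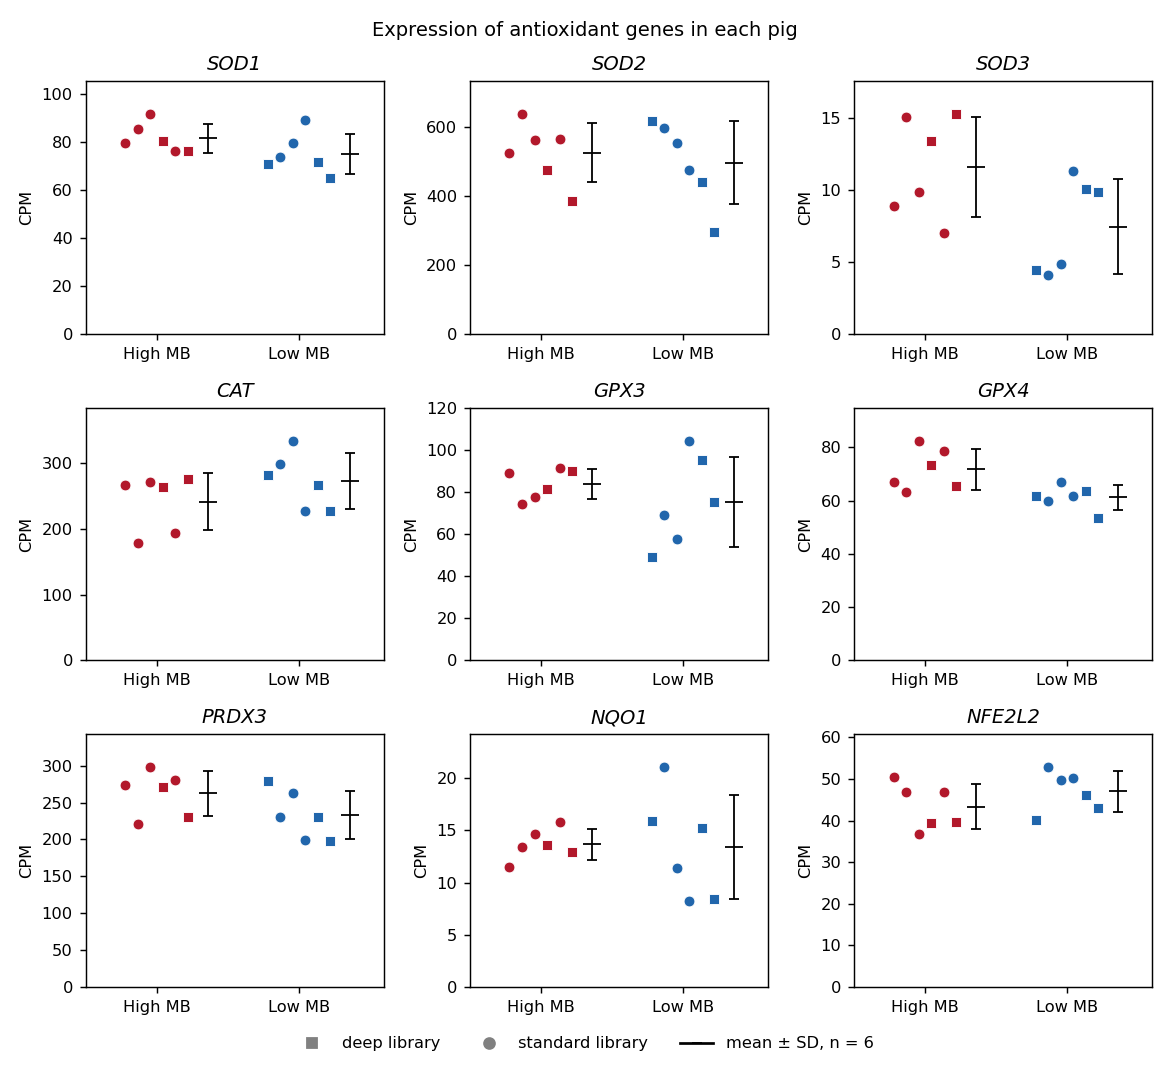
Expression in CPM (vertical axis, from 0) of the 9 antioxidant genes in each pig, with High MB pigs in red and Low MB pigs in blue, deep libraries as squares and standard libraries as circles, and the mean ± SD of 6 pigs in black. The groups overlapped in every panel, GPX4 came nearest to separating with 4 High MB values above the whole Low MB group, and NQO1 and GPX3 spread more among Low MB than among High MB pigs.

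The 3 superoxide dismutases differ in where they work. SOD1 (ENSSSCG00000021355, chr13:195326573-195335273, plus strand) is the copper and zinc enzyme of the cytosol. Its level ran from 76.1 over a median of 80.2 to 91.7 CPM in the High MB group and from 65.1 over 72.8 to 89.3 CPM in the Low MB group. Its means were 81.6 ± 6.03 CPM and 75.1 ± 8.41 CPM (SD, n = 6 each). The log2 fold change of 0.12 ± 0.10 (SE, 95% interval −0.09 to 0.33) did not pass the edgeR test (adjusted p = 0.748), and an exact two-sided permutation test over the 924 splits of the pigs gave p = 0.141. Deep libraries alone gave 0.22 and standard ones 0.049, and the value without Low MB pig 4 was 0.19.

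SOD1 shared 96 exon bases, 15.1% of its transcript, with SCAF4, a gene on the opposite strand that encodes an RNA processing factor. The library kit does not by itself mark strand, and the strand setting of the counting was not given in the sources used here, so reads of the 2 genes cannot be told apart there. SCAF4 was looked at because of this overlap, after its values had been seen. Its counts of 2978 to 6772 per pig were nearly those of SOD1, with a ratio of SOD1 to SCAF4 between 0.920 and 1.05 in every pig. Over the 12 pigs the log2 CPM of the 2 genes correlated with r = 0.90 (permutation p = 6e-05) and rho = 0.85 (p = 0.00071), r was 0.82 without the 2 pigs farthest from the median of SCAF4, and it was 0.78 (exact p = 0.0446) in the 7 standard libraries. How far the 96 shared bases account for the nearly equal counts was not tested, and the level given for SOD1 is uncertain.

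SOD2 (ENSSSCG00000040317, chr1:7679352-7689564, plus strand), the manganese enzyme of the mitochondrial matrix, had the highest level of the 9 genes. It ran from 387 over a median of 545 to 639 CPM in the High MB group and from 296 over 514 to 619 CPM in the Low MB group. The lowest pig of each group, number 6 in both, was a deep library, and the rest of the 2 groups overlapped almost fully. Its log2 fold change was 0.08 ± 0.17 (SE, 95% interval −0.29 to 0.46, edgeR adjusted p = 0.922, exact permutation p = 0.610). It was −0.031 without Low MB pig 6, 0.16 without High MB pig 6 and 0.042 without High MB pig 2.

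SOD3 (ENSSSCG00000028814, chr8:18796633-18802156, plus strand) is the secreted enzyme that binds the extracellular matrix, and it had the largest fold difference of the 9. The High MB pigs 1 to 6 had 8.88, 15.1, 9.87, 13.4, 7.02 and 15.3 CPM, and the Low MB pigs 1 to 6 had 4.45, 4.13, 4.90, 11.3, 10.1 and 9.84 CPM. Low MB pigs 1, 2 and 3 lay below every High MB pig, while Low MB pigs 4, 5 and 6 lay among them. The means of 11.6 ± 3.47 and 7.45 ± 3.29 CPM (SD, n = 6 each) gave a log2 fold change of 0.64 ± 0.29 (SE, 95% interval 0.03 to 1.25, or 1.02 to 2.38 fold). The unadjusted edgeR p was 0.0420 and the adjusted p 0.578, and the exact permutation p was 0.0693. Deep libraries alone gave 0.86 and standard ones 0.60. Leaving out each pig in turn moved it between 0.52 and 0.81, the value fell under the limit of 0.58 in 5 of the 12 fits, and the unadjusted p stayed below 0.05 in 6 (0.0149 to 0.0927). Per pig 165 to 1422 reads were counted for SOD3, so counting error is small beside the spread between pigs.

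Catalase, the peroxisomal enzyme that splits hydrogen peroxide without a cofactor to be recycled, had the lower mean in the High MB group. CAT (ENSSSCG00000013302, chr2:26493664-26533881, minus strand) ran from 178 over a median of 265 to 276 CPM in the High MB group and from 227 over 274 to 334 CPM in the Low MB group. High MB pigs 2 and 5, both standard libraries, were the lowest of all 12 at 178 and 194 CPM, and the other High MB pigs lay within the Low MB range. This gave a log2 fold change of −0.18 ± 0.14 (SE, 95% interval −0.48 to 0.13, edgeR adjusted p = 0.750, exact permutation p = 0.234). Without High MB pig 2 it was −0.079. Standard libraries alone gave −0.33 and deep ones 0.10, and the difference between these values was not tested.

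Among the glutathione peroxidases, which are selenoproteins, GPX4 (ENSSSCG00000024052, chr2:77321568-77323931, minus strand) reduces lipid peroxides within membranes. The High MB pigs 1 to 6 had 67.1, 63.3, 82.5, 73.5, 78.8 and 65.6 CPM, and the Low MB pigs had 61.5, 59.7, 67.0, 61.8, 63.5 and 53.4 CPM. Values above the whole Low MB group were seen in 4 High MB pigs, and values below the whole High MB group in 4 Low MB pigs, so the groups overlapped in a narrow band. Means of 71.8 ± 7.72 and 61.2 ± 4.52 CPM (SD, n = 6 each) gave a log2 fold change of 0.23 ± 0.10 (SE, 95% interval 0.02 to 0.44, or 1.02 to 1.36 fold). The exact permutation p was 0.0130, where 0.00216 is the smallest the design allows, and the unadjusted edgeR p was 0.0310, which the correction over all genes did not keep (adjusted p = 0.563). Deep libraries alone gave 0.27 and standard ones 0.22. Leaving out each pig in turn moved it between 0.19 and 0.29, with an unadjusted p below 0.05 in 8 of 12 fits (0.00881 to 0.0793).

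GPX3 (ENSSSCG00000036438, chr16:71980467-71989011, minus strand), the secreted plasma peroxidase, ran from 74.6 over a median of 85.4 to 91.7 CPM in the High MB group. In the Low MB group it ran from 49.3 over 72.4 to 104.7 CPM, so that Low MB pigs were both the lowest and the highest. The coefficient of variation was 8.56% in the High MB and 28.4% in the Low MB group, a difference in spread that was not tested. GPX3 had a log2 fold change of 0.16 ± 0.16 (SE, 95% interval −0.19 to 0.51, edgeR adjusted p = 0.812, exact permutation p = 0.286). Without Low MB pig 1 it was 0.06, and without Low MB pig 4 it was 0.29.

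PRDX3 (ENSSSCG00000010682, chr14:129079050-129090790, minus strand) removes hydrogen peroxide in the mitochondrial matrix with electrons from thioredoxin. It ran from 221 over a median of 273 to 298 CPM in the High MB group and from 198 over 230 to 279 CPM in the Low MB group. High MB pigs 3 and 5 exceeded the whole Low MB group, and Low MB pigs 4 and 6 lay under the whole High MB group. PRDX3 had a log2 fold change of 0.17 ± 0.12 (SE, 95% interval −0.08 to 0.43, edgeR adjusted p = 0.699, exact permutation p = 0.143), with 0.13 from deep and 0.23 from standard libraries alone. Without High MB pig 2 it was 0.24, at an unadjusted edgeR p of 0.0493 and an adjusted p of 0.483.

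NFE2L2 (ENSSSCG00000015987, chr15:82967485-83146185, minus strand) ran from 36.7 over a median of 43.2 to 50.5 CPM in the High MB group and from 40.04 over 48.0 to 52.9 CPM in the Low MB group. The log2 fold change of −0.12 ± 0.11 (SE, 95% interval −0.35 to 0.11) did not pass the edgeR test (adjusted p = 0.777, exact permutation p = 0.253). Deep libraries alone gave −0.084 and standard ones −0.16, and without Low MB pig 2 the value was −0.069. NRF2 is regulated mainly through the stability of the protein, which RNA counts do not show. The RefSeq transcript of NFE2L2 shared 1256 bases (14.3%) with HNRNPA3 on the opposite strand. HNRNPA3 was not analysed here, so what this overlap adds to the counts of NFE2L2 is not known.

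NQO1 (ENSSSCG00000002754, chr6:17292962-17302593, plus strand), whose upstream core is printed above, had nearly equal means of 13.7 ± 1.48 CPM in the High MB and 13.4 ± 4.97 CPM in the Low MB group (SD, n = 6 each). The High MB pigs 1 to 6 had 11.5, 13.4, 14.7, 13.6, 15.8 and 12.9 CPM, and the Low MB pigs had 15.9, 21.1, 11.4, 8.24, 15.2 and 8.47 CPM. The Low MB group thus held the 2 highest pigs and the 3 lowest, and its coefficient of variation was 37.1% against 10.8% in the High MB group, a difference that was not tested. NQO1 had a log2 fold change of 0.03 ± 0.21 (SE, 95% interval −0.41 to 0.47, edgeR adjusted p = 0.985, exact permutation p = 0.671), and of 0.056 without High MB pig 2. NQO1 did not follow NFE2L2 over the 12 pigs (r = −0.05, permutation p = 0.869, rho = −0.10, p = 0.749).

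**Figure D2:**
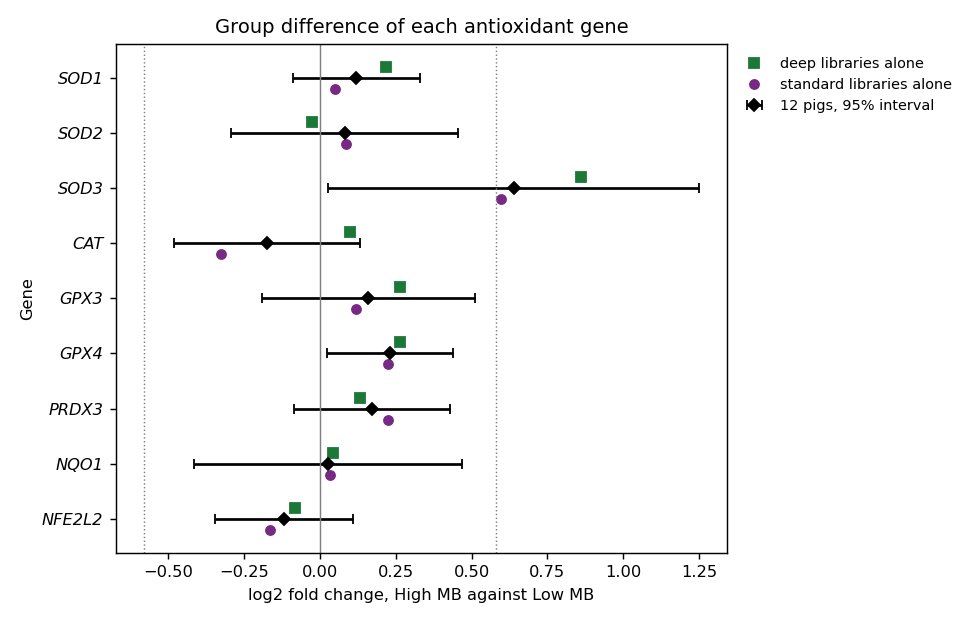
log2 fold change of the High MB over the Low MB group (horizontal axis) for each antioxidant gene, as black diamonds with 95% intervals over 12 pigs, green squares for the 5 deep and purple circles for the 7 standard libraries alone, with dotted lines at ±0.58. The intervals of SOD3 and GPX4 lie above 0, and CAT and SOD2 have values on both sides of 0 in the 2 depth classes.

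Set against the limit used for a call, the 95% intervals of SOD1, SOD2, CAT, GPX3, GPX4, PRDX3, NQO1 and NFE2L2 lay within −0.58 to 0.58 on the log2 scale, and that of SOD3 did not. These are intervals for each gene on its own, without correction for the number of genes. Counts were also simulated on 13373 genes with these depths and this spread. There edgeR gave an adjusted p below 0.10 in the right direction to 32.8% of genes changed 1.5-fold. The share was 68.7% for genes changed 2-fold and 92.4% for those changed 4-fold. The limit on the fold change was not applied to these shares, and the median estimate of the 1.5-fold genes, 0.579, lay just under it. A difference as large as that of SOD3 would thus often have gone uncalled.

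To compare the genes with each other, CPM was divided by the length of the RefSeq transcript in kilobases. On this scale the means over the 12 pigs were 306 for SOD2, 158 for PRDX3, 123 for SOD1, 109 for CAT, 74.7 for GPX4, 51.0 for GPX3, 13.0 for SOD3, 7.96 for NQO1 and 5.14 for NFE2L2. The 2 enzymes of the mitochondrial matrix thus had the highest levels per length, and the secreted SOD3, NQO1 and NFE2L2 the lowest. The range over pigs was 103 to 144 for SOD1 and 75.6 to 142 for CAT, so these neighbours overlapped, as did PRDX3 (126 to 190) and SOD1. The ranges of GPX4 (60.0 to 92.7) and GPX3 (31.5 to 66.9) overlapped only slightly. The place of SOD1 in this order is uncertain, since its counts were nearly those of SCAF4. The value for NFE2L2 rests on a predicted transcript of 8793 bases, and the gene models behind the counts may differ in length.

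The genes around these enzymes were grouped into 5 lists. Of the glutathione system 18 genes were tested, and 2 were higher at an unadjusted edgeR p below 0.05 and 0 lower, beside 5.33% and 3.13% of all genes, with a median log2 fold change of 0.04. These were MGST3, a microsomal glutathione transferase, and GPX2, a peroxidase known mainly from the gut. MGST3 had 37.5 ± 5.57 CPM in the High MB and 30.7 ± 2.20 CPM in the Low MB group (SD, n = 6 each), a log2 fold change of 0.29. GPX2 had only 2.09 ± 1.18 and 0.961 ± 0.503 CPM, a log2 fold change of 1.12. MGST1, another microsomal transferase, had a log2 fold change of 0.71 (edgeR adjusted p = 0.602), and GLO1, the glyoxalase with the highest CPM of the list, had −0.24 (adjusted p = 0.644). Without High MB pig 2, GLO1 had −0.14. The lowest edgeR adjusted p of the list was 0.563.

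Of 18 thioredoxin and peroxiredoxin genes, 0 passed p below 0.05 in either direction, and their median was 0.06. The lowest edgeR p-values belonged to the thioredoxin reductase TXNRD3 (log2 fold change −0.29, adjusted p = 0.587) and the sestrins SESN2 (−0.73, adjusted p = 0.615) and SESN3 (0.53, adjusted p = 0.627), stress proteins that assist peroxiredoxins. The value of SESN2 rested on Low MB pig 4, which had 16.8 CPM, and without that pig it was −0.057. That of SESN3 was 0.80 without Low MB pig 6. TXNIP, the thioredoxin inhibitor and the most abundant gene of the list at a mean of 748 CPM, had a log2 fold change of 0.08, which was 0.17 without High MB pig 2 and −0.0031 without High MB pig 4. The median of the list was 0.082 without High MB pig 2.

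Of 21 NRF2 regulators and targets, 1 was higher and 0 lower, near the shares of all genes (5.33% and 3.13%), with a median of −0.07. The higher one was PGD (log2 fold change 0.70, edgeR adjusted p = 0.570), an enzyme of the pentose phosphate pathway that yields NADPH, at 9.93 ± 5.42 against 6.09 ± 2.24 CPM (SD, n = 6 each). KEAP1, which holds NRF2 down, ran from 157 to 182 CPM in the High MB and from 171 to 208 CPM in the Low MB group, with a log2 fold change of −0.19 (edgeR adjusted p = 0.588). MAFF, a small partner protein of NRF2, had −0.61 (edgeR adjusted p = 0.615), and the related factor NFE2L1, at a mean of 900.1 CPM, had 0.10 (adjusted p = 0.922), which lay between 0.0065 and 0.24 with 1 pig left out. When High MB pig 2 was left out, the log2 fold change of PGD was 0.36, 0 genes of the list were higher and 2 lower (MAFF and MAFG), and the median was −0.13.

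Of 9 tested genes that produce superoxide or peroxide, 3 were higher at an unadjusted edgeR p below 0.05 and 0 lower, beside 5.33% and 3.13% of all genes, with a median of 0.15. CYBA, the p22phox subunit of NADPH oxidases, had 3.47 ± 1.77 against 1.71 ± 0.579 CPM (SD, n = 6 each), a log2 fold change of 1.03 (edgeR adjusted p = 0.563). AOX1, an aldehyde oxidase, had 5.27 ± 1.19 against 3.37 ± 1.14 CPM (log2 fold change 0.64, edgeR adjusted p = 0.563), and RAC2, the small GTPase of the phagocyte oxidase, had 2.68 ± 1.14 against 1.56 ± 0.655 CPM (0.78, adjusted p = 0.577). RAC1, the widely expressed relative and the most abundant gene of the list, had −0.15 (edgeR adjusted p = 0.727), and NOXA1, XDH, DUOX1 and DUOX2 were too low to be tested. With High MB pig 2 left out, the list had 2 higher genes (CYBA and AOX1) and 1 lower (NCF1), with a median of 0.054. The value of RAC1 was −0.067 without Low MB pig 5.

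Of 9 metal and selenoprotein support genes, 1 was higher and 0 lower, against the same shares of all genes, with a median of −0.03. It was ATOX1, a copper chaperone, at 8.03 ± 0.957 against 6.02 ± 0.805 CPM (SD, n = 6 each), a log2 fold change of 0.42 (edgeR adjusted p = 0.563). CCS, the copper chaperone of SOD1, had 0.10 (edgeR adjusted p = 0.884), and SECISBP2, which serves selenocysteine insertion into proteins such as GPX4, had −0.09 (adjusted p = 0.843). With 1 pig left out CCS lay between 0.030 and 0.20 and SECISBP2 between −0.14 and 0.0027. The median of the list was 0.0056 without High MB pig 2, so its sign rested on that pig.

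**Figure D3:**
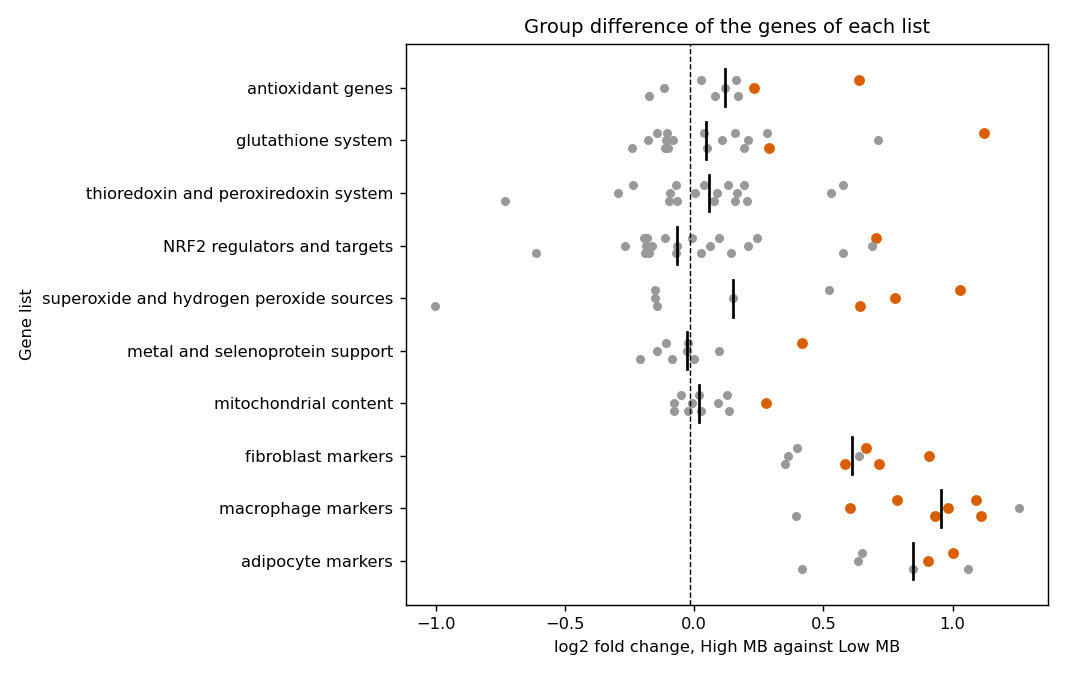
log2 fold change of the High MB over the Low MB group (horizontal axis) for each tested gene of the antioxidant set, the 5 surrounding lists and 4 marker lists, with genes at an unadjusted edgeR p below 0.05 in orange, the median of each list as a black bar and the median of all 13373 genes as a dashed line. The medians of the antioxidant lists lie between −0.07 and 0.15, and those of the fibroblast, macrophage and adipocyte markers between 0.61 and 0.96.

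Markers of other cells in the muscle piece were counted in the same way. None was called after correction, and the counts below, at an unadjusted edgeR p below 0.05, stand beside 5.33% of all genes higher and 3.13% lower. Of the macrophage markers 6 of 8 were higher in the High MB group and 0 lower, with a median log2 fold change of 0.96 and summed levels of 54.4 to 128 CPM in the High MB and 27.8 to 63.8 CPM in the Low MB group. CSF1R, the most abundant of them, had 24.9 ± 7.32 against 16.4 ± 4.21 CPM (SD, n = 6 each). Of the fibroblast markers 4 of 8 were higher (COL1A1, COL1A2, PDGFRA and FAP), with a median of 0.61 and sums of 736 to 1290 against 383 to 977 CPM. The most abundant of them, COL3A1, was not among the 4 (log2 fold change 0.64, edgeR adjusted p = 0.590). Of the adipocyte markers 2 of 7 were higher (FABP4 and CIDEC), with a median of 0.85 and sums of 176 to 369 against 112 to 348 CPM. The most abundant, LPL, was not among the 2 (log2 fold change 0.42, edgeR adjusted p = 0.644, and 0.26 without High MB pig 3). Without High MB pig 2 LPL had 0.54, at an unadjusted edgeR p of 0.0361. None of the markers in these 3 lists was at 0 in any pig. High MB pig 2 had the highest macrophage sum. Without that pig 4 of 8 macrophage markers were higher, with a median of 0.57. So were 4 of 8 fibroblast markers (median 0.60) and 3 of 7 adipocyte markers (median 0.86). The 4 fibroblast markers were then COL1A1, COL1A2, FAP and DCN, the last with a log2 fold change of 0.46. PDGFRA was no longer among them, and its log2 fold change fell from 0.91 to 0.52. More cells of a type and more RNA per cell cannot be told apart in a muscle piece, and the part of these cells in the values of SOD3, CYBA, RAC2 and the other genes above was not tested.

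The other marker lists differed less or were sparse. Of the endothelial markers 1 of 6 was higher, ERG (median 0.26, sums of 131 to 177 against 81.0 to 192 CPM), while the most abundant, PECAM1, had a log2 fold change of 0.27 (edgeR adjusted p = 0.710), which lay between 0.17 and 0.45 with 1 pig left out. Of the smooth muscle markers 0 of 6 were higher (median 0.38, 201 to 893 against 174 to 459 CPM), with RGS5 the most abundant, while without High MB pig 2 the count was 1 of 6 and the gene RGS5 (log2 fold change 0.48, edgeR adjusted p = 0.477). The sum of 893 CPM was that of High MB pig 6, on which the sign of the median rested. Without it MYH11 had −0.66, ACTA2 −0.36, TAGLN −0.040 and CNN1 −0.68. RGS5 and PDGFRB stayed above 0 whichever pig was left out (lowest 0.18 and 0.30). Of the 4 measured erythroid markers 2 were tested and both were higher, ALAS2 and HBB, the latter at 97.4 ± 33.9 against 56.5 ± 16.8 CPM (SD, n = 6 each), while SLC4A1 was at 0 counts in 9 pigs and AHSP in 3. Of the T and B cell markers 0 of the 6 tested were higher, with sums of 6.10 to 12.5 against 4.70 to 10.98 CPM, and MS4A1 was at 0 in 7 pigs. PTPRC, the most abundant of them, is also carried by other leukocytes. Its log2 fold change was 0.57, and 0.25 without High MB pig 2. The muscle fibre markers defined the tissue, with sums of 44216 to 96156 CPM in the High MB and 72655 to 125470 CPM in the Low MB group and ACTA1 at a mean of 44113 CPM, and 2 of 7 were higher, the slow fibre troponins TNNT1 (log2 fold change 0.56) and TNNI1 (0.58), both with an edgeR adjusted p of 0.563. Of the mitochondrial genes 1 of 11 was higher, COX4I1 (log2 fold change 0.28, edgeR adjusted p = 0.578), with a median of 0.018 that was 0.075 without High MB pig 2, sums of 2792 to 3621 against 2204 to 3576 CPM, and VDAC1 as the most abundant. The sign of that median rested on Low MB pig 6. Without it SDHB, NDUFS1, VDAC1 and CYCS lay below 0, as did SDHA (−0.00047) and IDH3A (−0.20), while COX4I1, COX5A and UQCRC1 stayed above 0.

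The 9 genes did not vary as a block over the pigs. Among their 36 pairs, log2 CPM correlated with r between −0.50 and 0.79, 19 pairs had r above 0, and 0 pairs passed a Benjamini-Hochberg adjusted permutation p below 0.05. The closest pair was GPX4 and PRDX3, with r = 0.79 (permutation p = 0.00191, adjusted p = 0.0688) and rho = 0.73 (p = 0.00862), r = 0.68 without the 2 pigs farthest from the median of GPX4, and r = 0.84 (exact p = 0.0200) in the 7 standard libraries. The lowest r over all pigs was that of SOD3 and CAT, at −0.50 (permutation p = 0.0992) with rho = −0.49 (p = 0.108), but it was 0.10 within the High MB and −0.83 within the Low MB group. After the group means were removed the lowest value was that of SOD3 and PRDX3, at −0.77, which had r = −0.32 (permutation p = 0.311) over all pigs.

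The 9 genes were also set against the summed levels of the 9 marker lists, 81 relations in all, chosen after the values had been seen. PRDX3 followed the summed mitochondrial genes, with r = 0.83 (permutation p = 0.00052, adjusted p = 0.0251) and rho = 0.85 (adjusted p = 0.0259). The correlation was 0.78 without the 2 pigs farthest from the median of the mitochondrial sum, 0.83 (exact p = 0.0202) in the standard libraries, and 0.85 after the group means were removed. SOD2, of the same compartment, had r = 0.79 (permutation p = 0.00445, adjusted p = 0.0721) and rho = 0.55 (p = 0.0670), with r = 0.92 without the 2 farthest pigs and 0.79 after the group means were removed. In the standard libraries, however, r was −0.03 (exact p = 0.942), so the relation did not hold there with all 7 pigs. That value rested on High MB pig 2, which had the highest SOD2 level. Without it r was 0.97 (n = 11, permutation p = 3e-05, adjusted p = 0.00243) and 0.81 (exact p = 0.0681) in the 6 other standard libraries. The PRDX3 relation without that pig had r = 0.81 (permutation p = 0.00133, adjusted p = 0.0539). Over all 12 pigs GPX4 (r = 0.66, adjusted permutation p = 0.210) and NQO1 (r = 0.59, adjusted permutation p = 0.252) also rose with the mitochondrial sum. SOD2 was lower where the smooth muscle markers were higher (r = −0.69, adjusted permutation p = 0.210, rho = −0.78, adjusted p = 0.0844). No correlation was computed over the 5 deep libraries alone, in which SOD2 and the mitochondrial sum had the same order of pigs.

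Over all 12 pigs CAT was lower where markers of immune cells were higher, a relation to which High MB pig 2 contributed, with the lowest CAT level and the highest macrophage sum. Against the T and B cell markers r was −0.83 (permutation p = 0.00062, adjusted p = 0.0251) and rho −0.78 (adjusted p = 0.0844), and against the macrophage markers r was −0.77 (p = 0.00335, adjusted p = 0.0678) and rho −0.89 (permutation p = 0.00024, adjusted p = 0.0194). Within the 7 standard libraries both were −0.92 (exact p = 0.00437 and 0.00218), and without the 2 pigs farthest from the median of the markers they were −0.64 and −0.67. After the group means were removed they were −0.81 and −0.76. Without High MB pig 2 they were −0.78 (n = 11, permutation p = 0.00451, adjusted p = 0.122) and −0.63 (permutation p = 0.0357, adjusted p = 0.2504), so neither Pearson correlation then passed the correction. For the macrophage markers rho was then −0.85 (adjusted p = 0.0660). In the 6 other standard libraries r was −0.88 and −0.89 (unadjusted exact p = 0.0194 and 0.0250). SOD3 was high where the macrophage markers were high (r = 0.77, permutation p = 0.00311, adjusted p = 0.0678, rho = 0.59, p = 0.0454), with r = 0.65 without the 2 farthest pigs and 0.87 (exact p = 0.0113) in the standard libraries. After the group means were removed r was 0.65, and it was 0.40 within the High MB and 0.84 within the Low MB group. Without High MB pig 2 it was 0.74 (permutation p = 0.00971, adjusted p = 0.197). SOD3 also correlated with the adipocyte (r = 0.64), T and B cell (0.63), fibroblast (0.62) and endothelial markers (0.59), each with an adjusted permutation p between 0.239 and 0.252. In the same order these were 0.71, 0.78, 0.17 and 0.46 without the 2 farthest pigs, and 0.50, 0.60, 0.32 and 0.36 in the standard libraries. Whether the relation to the macrophage markers differs from these was not tested. In the standard libraries alone, 0 of the 81 relations had an adjusted p below 0.05.

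**Figure D4:**
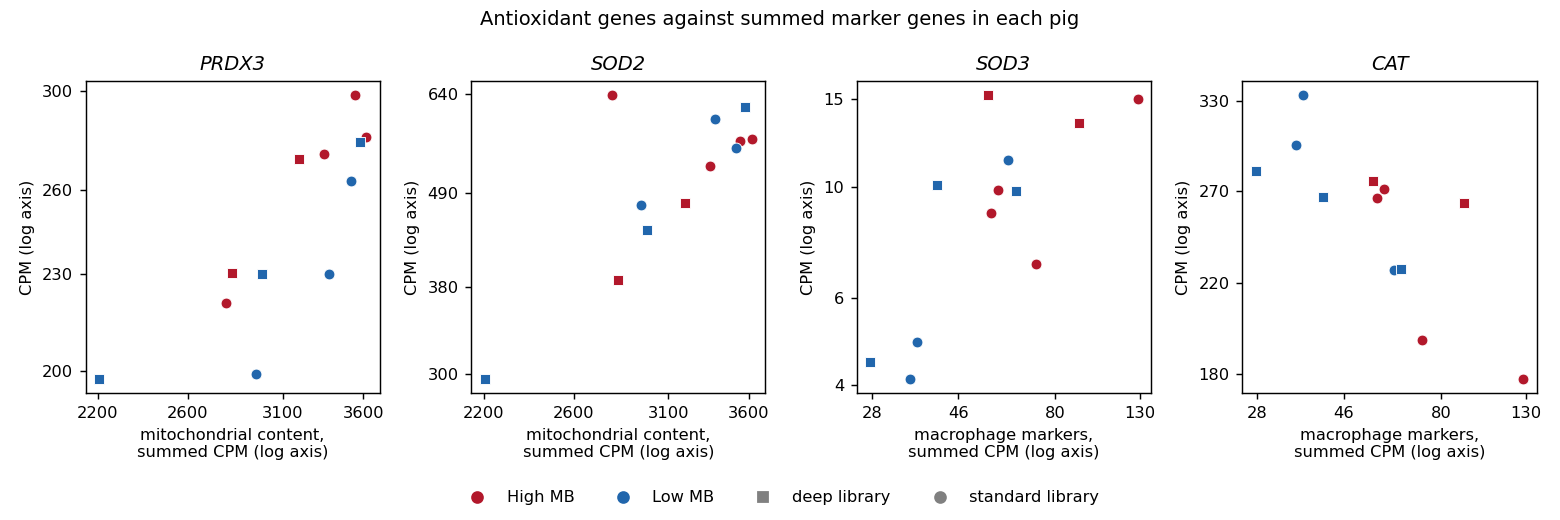
CPM of PRDX3 and SOD2 against the summed CPM of the mitochondrial genes, and of SOD3 and CAT against that of the macrophage markers, in each pig (both axes logarithmic, High MB in red, Low MB in blue, squares for deep and circles for standard libraries). PRDX3 climbs with the mitochondrial sum (r = 0.83) in both groups, the lowest point of SOD2 is Low MB pig 6, and CAT falls with the macrophage markers (r = −0.77) while SOD3 climbs (r = 0.77).

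Myoglobin content formed 2 separate clusters, so its relation to the antioxidant genes was computed only within groups. Over 9 genes and 2 groups, 0 of 18 relations had an exact permutation p below 0.05. The strongest was GPX4 in the Low MB group, with r = 0.76 (n = 6, exact p = 0.0625, adjusted p = 0.832), rho = 0.77 (exact p = 0.103) and r = 0.73 without the 2 pigs farthest from the median. In the High MB group the same relation had r = 0.41 (n = 6, exact p = 0.444). With 6 pigs per group only very close relations could have passed.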

How the data were processed

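The authors prepared 1 paired-end library per pig with a NEBNext Ultra RNA kit, trimmed the reads with Trim Galore, used HISAT2 to align them to Sscrofa11.1, and deposited the raw HTSeq counts per gene, not normalized. The annotation release and the strand setting of the counting are not given in the sources used here. Between 47.0% and 48.2% of the counted fragments were assigned to a gene and 50.9% to 52.0% to no feature, and the summary lines were kept out of library sizes and tests. Why so many fell in no feature was not tested. The 12 tables of transcript counts were not used, since their identifiers were not paired with genes.

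Of 25880 genes, 13373 passed filterByExpr and were tested with edgeR 4.0.16 in R 4.3.3 (TMM, quasi-likelihood test, group as the only term). Standard errors and 95% intervals come from the edgeR statistic, and log2 CPM used a prior count of 2. Calls needed an adjusted p under 0.10 and a log2 fold change beyond 0.58 in either direction. DESeq2 1.42.0 was an alternative, and both tools were tested on simulated data. Correlations used 100000 permutations, or all of them for 7 or fewer pigs. Sequences and positions came from RefSeq on Sscrofa11.1.

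The antioxidant genes and all lists were chosen with earlier results of these data known. All 9 measured members are named. In each pathway list, the named genes are the 3 with the lowest p and the most abundant one, and in each marker list the most abundant one and those at 0 counts in any pig, of which 1 is not reported here. SCAF4, HNRNPA3, the 4 untested oxidase genes, TNNT1, TNNI1, COX4I1, MAFG, NCF1, DCN, the other markers at p under 0.05 and the genes most alike were named after their values had been seen. So were the smooth muscle and mitochondrial genes named for fits with 1 pig left out.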

Additional observations from a re-analysis of the deposited data

How the results depend on the processing

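Alternatives were RLE or upper quartile size factors, leaving low genes unfiltered, a minimum of 10 counts in each pig, removal of the 10 most abundant genes, the depth class as a covariate, each depth class alone, each pig left out, the individual number as a block, and DESeq2, and, for differences in mean log2 CPM, a prior count of 0.5. Of the edgeR and DESeq2 log2 fold changes of the 9 genes, 191 kept their direction and 7 turned it, and none of the 9 genes was called under any setting. The log2 fold change of SOD3 fell under 0.58 in 5 of the 12 fits with 1 pig left out (0.52 to 0.81). SOD2 was −0.027 in the deep libraries alone and between −0.031 and 0.16 with 1 pig left out, lowest without Low MB pig 6. CAT was 0.10 in the deep libraries alone. NQO1 was between −0.076 and 0.22 with 1 pig left out, and was below 0 without High MB pig 5 or without Low MB pig 3, 4 or 6. Over all genes, 1 was called in the deep libraries alone and 29 by DESeq2, none of them an antioxidant gene, and with 1 pig left out edgeR called 0 genes each time. With the depth class as a covariate, 1 thioredoxin or peroxiredoxin gene was higher at p below 0.05 and 2 NRF2 regulators or targets were lower, where the main fit had 0 of each. Genes at an unadjusted p below 0.05 numbered 454 in the deep libraries alone, 862 in the standard ones and 1533 with no filter, against 1132.

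The individual numbers of the labels did not pair the pigs: the correlation of same-numbered pigs was over 0.1 in 1 of 6 pairs (−0.21 to 0.14), and 0 pigs correlated best with their own number. With that number as a replicate block, edgeR called 0 genes and 957 had p below 0.05. SOD3 then had a log2 fold change of 0.70 (edgeR adjusted p = 0.688) and GPX4 of 0.23 (adjusted p = 0.691), and the block changed no call. Each of the 9 genes had at least 165 reads in every pig. Leaving High MB pig 2 out of the list counts and the marker relations was chosen after seeing the data.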

Other observations

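For each antioxidant gene, the 3 genes whose log2 CPM was most like its own over the 12 pigs were looked up among 11353 other tested genes with a symbol. Being picked as the highest of so many, these correlations are descriptions without a test. PRDX3 was closest to COX7C (r = 0.94), ACAT1 (0.93) and UQCR10 (0.93), of which COX7C and UQCR10 encode respiratory chain subunits and ACAT1 a mitochondrial thiolase. SOD2 was closest to TWNK (0.93), the helicase of mitochondrial DNA, CYCS (0.91), which encodes cytochrome c, and ACSBG1 (0.91), an acyl-CoA synthetase. GPX4 was closest to COX4I1 (0.93), a respiratory chain subunit, and to TNNC1 (0.93), the troponin C of slow and cardiac muscle, and then to B3GALT1 (0.89), a galactosyltransferase at a mean of only 0.520 CPM. TNNC1 had a log2 fold change of 0.58 (edgeR adjusted p = 0.563).

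SOD3 was closest to VIM (0.95), which encodes vimentin, a filament protein of mesenchymal cells, and to TMSB10 (0.91) and TSPO (0.91). VIM and TMSB10 each had a log2 fold change of 0.63 (edgeR adjusted p = 0.563 for both), beside the 0.64 of SOD3. CAT was closest to CAPN3 (0.94), the muscle calpain, G3BP2 (0.92) and ANO5 (0.90), which had log2 fold changes of −0.30, −0.18 and −0.20 beside the −0.18 of CAT. GPX3 was closest to SYT9 (0.95), SCARA3 (0.91) and EPB41L4A (0.90), NQO1 to TMEM63A (0.87), STAMBPL1 (0.87) and MUL1 (0.86), and NFE2L2 to MAU2 (0.89), ZNF892 (0.89) and GATC (0.89). None of the 3 genes nearest to NFE2L2 or to NQO1 was another of the 9, nor did KEAP1 appear. SOD1 was closest to SCAF4 (0.90), whose exons it shares in part, before SLFN11 (0.90) and TOMM20 (0.84).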
